A study of Danio rerio with 9 samples.

Results

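The genes described here are those of the lipid droplet, the organelle in which cells store neutral lipid, and of seipin, an endoplasmic reticulum protein at the sites where droplets form. Members were taken by gene name from a fixed list of 10 names (*cidec*, *bscl2*, *bscl2l*, *plin1*, *plin2*, *plin3*, *plin6*, *pnpla2*, *dgat1a* and *dgat2*). Of these names, 9 were found among the 30628 genes of the table, and 8 of the 9 had enough counts to be tested. The name *plin3* was not in the table. Its gene identifier in the reference list of names, ENSDARG00000013711, was listed as *zgc:77486*, which is described beside the members and is not counted with them.

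RNA was sequenced from dissected ventricles of 6-month-old zebrafish of 3 genotypes, with 3 libraries for each genotype and 5 ventricles pooled in each library. WT fish carried neither the mutation nor the transgene. The study's methods call them siblings, but the sample labels say only WT and do not tell of which line. Fish labelled *mtor xu015/+* carry 1 mutant copy of *mtor*, which encodes the kinase that keeps the transcription factor Tfeb in the cytoplasm. *Tg(cmlc2:tfeb)* fish overexpress *tfeb* under the *cmlc2* promoter, which is active in cardiomyocytes and not in the other cell types of the ventricle. The same 3 WT libraries served both lines, and they are tagged as 9 months in the table, whereas the study's methods give 6 months for all fish. Age therefore cannot be told apart from genotype in the comparisons with WT if the tag is right. The columns of the lines carry no age tag, so their equal age in the comparison between the lines rests on the methods alone. All libraries are pools, so the p-values measure the spread between pools of ventricles.

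A lipid droplet is a core of triglyceride and sterol ester inside a single layer of phospholipid. Triglyceride is made in the endoplasmic reticulum by DGAT enzymes, seipin guides the forming droplet, perilipins coat its surface, CIDE proteins let droplets fuse and grow, and adipose triglyceride lipase (encoded by *pnpla2*) starts the breakdown of the core. In the heart, droplets buffer fatty acids that cardiomyocytes burn, while the fat cells on the surface of the heart hold large stores of their own.

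Totals of the estimated counts per library were between 35440229 and 45273885, and scaling factors were between 0.946 and 1.08. *tfeb* was at 22103, 26435 and 8783 normalized counts in the *Tg(cmlc2:tfeb)* libraries against 1654 to 2169 in WT, a log2 fold change of 3.37 (SE 0.36, adjusted p = 3.64e-04, edgeR with Benjamini-Hochberg adjustment). Replicate 3 of that line thus had the lowest transgene level. *mtor* was at 6165, 7294 and 5389 normalized counts in the *mtor xu015/+* libraries and at 6601, 3970 and 2522 in WT (log2 fold change 0.53, SE 0.28, adjusted p = 0.697, edgeR), so its count gave no check of that label. In *Tg(cmlc2:tfeb)*, *mtor* was at 1899.6, 1904 and 1871 normalized counts and was called lower than in WT (-1.21, adjusted p = 0.0153, edgeR). Against WT it was at -0.78 without WT replicate 1, and its adjusted p was 0.0518 without *Tg(cmlc2:tfeb)* replicate 2 (edgeR). *mtor* was also called lower than in *mtor xu015/+* (-1.73, adjusted p = 0.00275, edgeR). The heart label was checked with *myl7*, the cardiomyocyte myosin light chain gene also known as *cmlc2*, which was between 560934 and 789171 normalized counts in every library.

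In *Tg(cmlc2:tfeb)* ventricles, 4 of the 8 tested members fell and 0 rose: *cidec* (droplet fusion), *plin2* (droplet coat), *dgat2* (triglyceride synthesis) and the seipin-like gene *bscl2l*. Their means were between 8.40% and 20.2% of the WT means. The other 4 members, *bscl2*, *plin6*, *pnpla2* and *dgat1a*, were not called. A gene was called when its adjusted p was under 0.05 in the quasi-likelihood test of edgeR and its change was at least 1.5-fold, and by that rule 14.9% of all 21216 tested genes were called in either direction and 7.49% were called lower. The libraries of the 2 genotypes did not overlap for the same 4 members, against 20.9% of all genes that were lower without overlap. The median log2 fold change of the 8 members was -1.29, against -0.00063 for all genes. That median falls in a gap between the 4 called members (-3.54 to -2.34) and the other 4 (-0.25 to 0.10), so it describes no single member. *cidec* and *bscl2l* are in the study's list of genes called lower in both lines, which was chosen on these libraries. Their direction in these libraries is therefore not independent evidence. The study also reported both genes as lower in each line by quantitative RT-PCR, which is not part of these data.

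**Figure D1:**
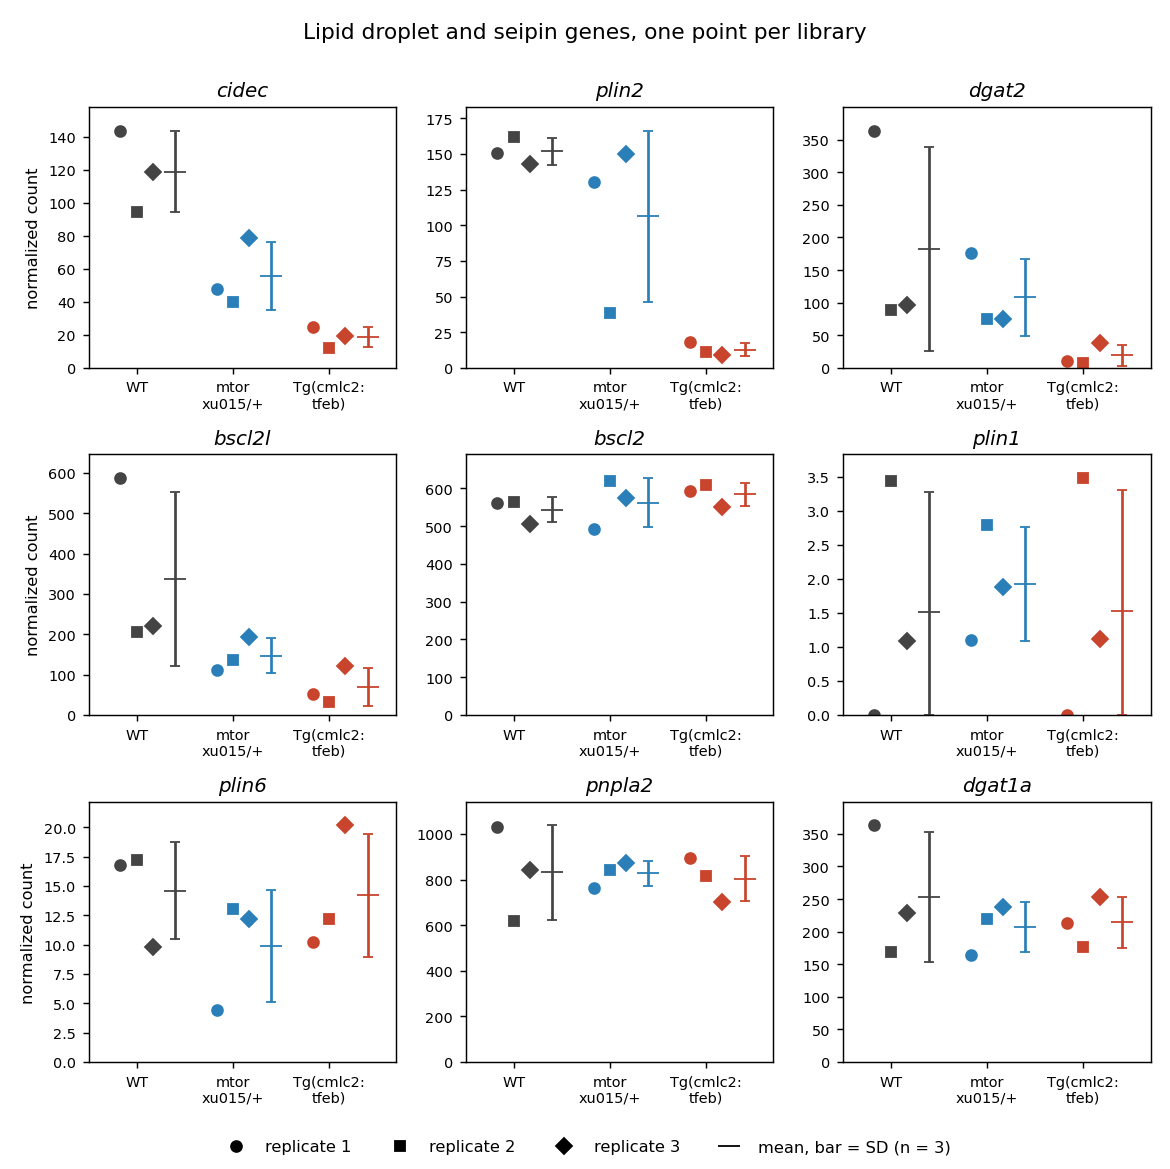
Normalized counts (y axis, linear from 0) of the 9 members in each library of WT, *mtor xu015/+* and *Tg(cmlc2:tfeb)* (x axis); symbols mark replicate numbers, and the bar beside each group is the mean with its SD (n = 3), ended at 0 where it would pass below. For *cidec*, *plin2*, *dgat2* and *bscl2l*, the *Tg(cmlc2:tfeb)* points sit below every WT point, whereas for *bscl2*, *pnpla2* and *dgat1a* the 3 genotypes overlap.

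*cidec* (ENSDARG00000059651, GRCz11 chromosome 6, 21202639 to 21212367) encodes the CIDE family protein that, in mammals, moves lipid from small droplets to large ones. It was at 143, 94.1 and 119 normalized counts in the 3 WT libraries. Those values were 47.5, 39.9 and 78.9 in *mtor xu015/+* and 24.8, 12.2 and 19.1 in *Tg(cmlc2:tfeb)*. The 3 genotypes formed 3 separate ranges, with WT highest and the transgenic line lowest. Over all genes, 20.9% were lower without overlap in *Tg(cmlc2:tfeb)* than in WT. The share was 6.77% for *mtor xu015/+* below WT and 20.5% for *Tg(cmlc2:tfeb)* below *mtor xu015/+*. How many genes had all 3 ranges apart in this order was not counted. The means of *cidec* were 119 ± 24.6 in WT, 55.4 ± 20.6 in *mtor xu015/+* and 18.7 ± 6.31 in *Tg(cmlc2:tfeb)* (SD, n = 3). The log2 fold change against WT was -2.66 in *Tg(cmlc2:tfeb)* (SE 0.34, adjusted p = 8.98e-04, edgeR), and it was -1.10 in *mtor xu015/+* (SE 0.31, adjusted p = 0.495, edgeR), which was not called. The 2 other CIDE family genes were close to 0, with *cidea* between 0 and 7.84 and *cideb* between 0 and 2.56 normalized counts in the 9 libraries, and neither was tested.

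*plin2* (ENSDARG00000042332, chromosome 15, 17030473 to 17048822) encodes the perilipin that coats droplets in most cell types. Its WT libraries held 151, 162 and 143 normalized counts, and the *Tg(cmlc2:tfeb)* libraries held 18.0, 11.3 and 8.97. In *mtor xu015/+* it was at 130.4, 38.1 and 150.2, so that replicate 2 alone was low and the other two were near the WT range. The transgenic libraries were below every other library, and the SD was 9.57 in WT and 4.66 in *Tg(cmlc2:tfeb)* (n = 3). *plin2* fell with a log2 fold change of -3.54 (SE 0.49, 95% interval -4.65 to -2.43, adjusted p = 0.00133, edgeR). In *mtor xu015/+* it was -0.52 (SE 0.41, adjusted p = 0.810, edgeR) with all libraries and -0.11 without replicate 2 of that line.

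None of the other perilipin genes was called in *Tg(cmlc2:tfeb)* versus WT, and no test between perilipin genes was run. *plin1* (ENSDARG00000054048, chromosome 18, 25229634 to 25279323), the perilipin of adipocytes, was at 0 to 3.48 normalized counts in the 9 libraries and was too low for a test. *plin6* (ENSDARG00000076844, chromosome 16, 28797703 to 28836529), a perilipin of teleost fish, was also low, at 16.7, 17.2 and 9.81 normalized counts in WT. It was at 4.42, 13.0 and 12.2 in *mtor xu015/+* and at 10.3, 12.2 and 20.2 in *Tg(cmlc2:tfeb)*. All 3 ranges of *plin6* overlapped. Against WT, the value for *Tg(cmlc2:tfeb)* on the log2 scale was -0.05, with a 95% interval from -1.10 to 0.99 (adjusted p = 0.948, edgeR). The interval is wide, so these libraries do not settle whether *plin6* rose, fell or stayed. *zgc:77486* (ENSDARG00000013711, chromosome 8), the gene whose identifier the reference pairs with *plin3*, had 2937 to 3945 normalized counts in WT, 3210 to 3643 in *mtor xu015/+* and 2161 to 2533 in *Tg(cmlc2:tfeb)*. The transgenic libraries of *zgc:77486* lay below the others, at -0.55 on the log2 scale relative to WT (SE 0.12, adjusted p = 0.0103, edgeR), which was under the 1.5-fold threshold. It passed that threshold without WT replicate 2 (-0.67) and without *Tg(cmlc2:tfeb)* replicate 3 (-0.59).

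*dgat2* (ENSDARG00000018846, chromosome 10, 32501961 to 32524771) and *dgat1a* (ENSDARG00000103503, chromosome 19, 1370504 to 1393308) encode 2 unrelated enzymes for the same last step of triglyceride synthesis. *dgat2* was at 363, 88.4 and 96.0 normalized counts in WT, at 177, 74.3 and 74.2 in *mtor xu015/+* and at 11.1, 7.84 and 38.1 in *Tg(cmlc2:tfeb)*. WT replicate 1 stood well above the other WT libraries, and the *Tg(cmlc2:tfeb)* range lay below both other ranges. The log2 fold change of *dgat2* in *Tg(cmlc2:tfeb)* was -3.32 (SE 0.76, adjusted p = 0.0133, edgeR). It was -2.33 without WT replicate 1 and -4.25 without *Tg(cmlc2:tfeb)* replicate 3, and the call was lost without *Tg(cmlc2:tfeb)* replicate 2 (adjusted p = 0.0542, edgeR). *dgat1a* was at 363, 169 and 228 normalized counts in WT, at 165, 219 and 238 in *mtor xu015/+* and at 214, 176 and 253 in *Tg(cmlc2:tfeb)*. The ranges of *dgat1a* overlapped, with a log2 fold change of -0.25 in *Tg(cmlc2:tfeb)* (95% interval -0.85 to 0.35, adjusted p = 0.547, edgeR). Its near copy *dgat1b* was not called either (0.30, SE 0.26, adjusted p = 0.442, edgeR). As a share of the normalized counts of *dgat2* and *dgat1a* together, *dgat2* took 38.0% ± 10.7 in WT, 33.6% ± 15.7 in *mtor xu015/+* and 7.43% ± 4.90 in *Tg(cmlc2:tfeb)* (SD, n = 3). The exact two-sided permutation test gave p = 0.1 between *Tg(cmlc2:tfeb)* and WT, the smallest p that 3 libraries against 3 allow.

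Of the seipin genes, *bscl2l* was called and *bscl2* was not. *bscl2l* (ENSDARG00000025912, chromosome 14, 6159162 to 6175947) was at 587, 204 and 221 normalized counts in WT, at 110.5, 136 and 194 in *mtor xu015/+* and at 52.1, 31.4 and 121 in *Tg(cmlc2:tfeb)*. WT replicate 1 was again high, both lines lay below the WT range, and *Tg(cmlc2:tfeb)* replicate 3 fell inside the range of *mtor xu015/+*. The log2 fold change was -2.34 in *Tg(cmlc2:tfeb)* (SE 0.54, adjusted p = 0.0144, edgeR). It was -1.67 without WT replicate 1 and -3.01 without *Tg(cmlc2:tfeb)* replicate 3, and the call was lost without *Tg(cmlc2:tfeb)* replicate 2 (-1.98, adjusted p = 0.0501, edgeR). In *mtor xu015/+* it was -1.20 (SE 0.51, adjusted p = 0.616, edgeR) and -0.53 without WT replicate 1. *bscl2* (ENSDARG00000037008, chromosome 21, 26678484 to 26691959), the gene named for human seipin, was the steadiest member, with 505 to 563 normalized counts in WT, 492 to 620 in *mtor xu015/+* and 550.3 to 608 in *Tg(cmlc2:tfeb)*. Against WT, the value for *Tg(cmlc2:tfeb)* on the log2 scale was 0.10 with a 95% interval from -0.12 to 0.33 (adjusted p = 0.490, edgeR), an interval that does not reach the -2.34 of *bscl2l*. The share of *bscl2l* in the normalized counts of both seipin genes was 36.1% ± 13.2 in WT, 20.5% ± 4.12 in *mtor xu015/+* and 10.3% ± 6.85 in *Tg(cmlc2:tfeb)* (SD, n = 3). The exact two-sided permutation test gave p = 0.1 for each line against WT and p = 0.2 between the lines. Since 0.1 is the smallest p that 3 libraries against 3 allow, it shows only that the ranges were apart.

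*pnpla2* (ENSDARG00000089390, chromosome 25, 4541211 to 4574570) was at 1032, 619 and 843 normalized counts in WT, at 765, 844 and 871 in *mtor xu015/+* and at 896, 816 and 700.5 in *Tg(cmlc2:tfeb)*. WT held both the highest and the lowest library of this lipase gene. Against WT, the value for *Tg(cmlc2:tfeb)* on the log2 scale was -0.05 (95% interval -0.43 to 0.33, adjusted p = 0.867, edgeR). *g0s2*, whose product inhibits this lipase in mammals, fell in the same libraries. It was at 4185, 1901 and 2516 normalized counts in WT, at 1238, 1213 and 1952 in *mtor xu015/+* and at 321, 213 and 732 in *Tg(cmlc2:tfeb)* (log2 fold change -2.77 against WT, SE 0.46, adjusted p = 0.00325, edgeR). The value for *g0s2* was -3.42 without *Tg(cmlc2:tfeb)* replicate 3 and -2.40 without WT replicate 1. *abhd5b*, a coactivator of the lipase, had a log2 fold change of -0.33 (SE 0.09, adjusted p = 0.0270, edgeR), under the 1.5-fold threshold.

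**Figure D2:**
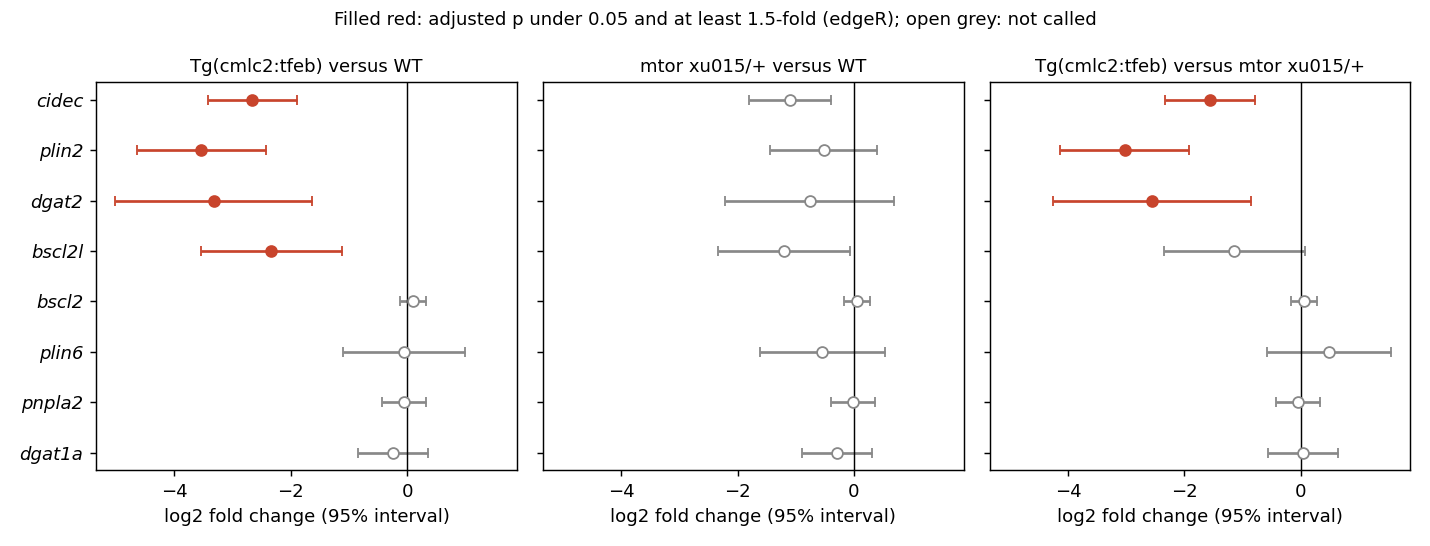
Log2 fold change (x axis) of the 8 tested members in the 3 comparisons (panels), each with its 95% interval; filled red points were called and open grey points were not. In *Tg(cmlc2:tfeb)* versus WT the 4 called members lie between -3.54 and -2.34, and in *mtor xu015/+* versus WT no member was called.

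In *mtor xu015/+* ventricles, 0 of the 8 tested members were called, against 0.0236% of all genes (5 of 21216) called in either direction. DESeq2 and limma-voom also called 0 members. At an unadjusted p under 0.05 in edgeR there were 2 members, *cidec* and *bscl2l*, and 7.86% of all genes reached that level. The same 2 members were lower without overlap of the libraries, against 6.77% of all genes. The study, with Cuffdiff as its test, called both of them lower in this line. The median log2 fold change of the 8 members was -0.53, against -0.00056 for all genes. That median lies between *plin2* (-0.52) and *plin6* (-0.54), and neither was called. *plin2* was at -0.11 without replicate 2 of *mtor xu015/+*, and *plin6* had low counts. The median is therefore not a measure of a shift of the members as a set. For *dgat2* the log2 fold change was -0.76 (SE 0.64, adjusted p = 0.820, edgeR) with all libraries and 0.23 without WT replicate 1. *pnpla2*, *bscl2* and *dgat1a* had values of -0.01, 0.05 and -0.29, and none was called.

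Set directly against each other, *Tg(cmlc2:tfeb)* and *mtor xu015/+* differed in 3 of the 8 members, all lower in *Tg(cmlc2:tfeb)*: *plin2*, *dgat2* and *cidec*. Over all genes, 16.0% were called in either direction and 7.95% were called lower, and the 3 members without overlap compare with 20.5% of genes that were lower without overlap. *plin2* had a log2 fold change of -3.02 (SE 0.49, adjusted p = 0.00257, edgeR) and *cidec* of -1.57 (SE 0.35, adjusted p = 0.0107, edgeR). *dgat2* was at -2.56 (SE 0.76, adjusted p = 0.0359, edgeR), and its call was lost in limma-voom (adjusted p = 0.0704) and without replicate 1 or 3 of *mtor xu015/+* or replicate 1 or 2 of *Tg(cmlc2:tfeb)* (edgeR adjusted p from 0.0522 to 0.117). *bscl2l* was not called (-1.14, SE 0.54, adjusted p = 0.158, edgeR), but it was without *Tg(cmlc2:tfeb)* replicate 3 (-1.82, adjusted p = 0.0458, edgeR). The median over the 8 members was -0.59, against 0.0048 for all genes, and it falls in a gap between *bscl2l* (-1.14) and *pnpla2* (-0.04). The 2 comparisons with WT share the WT libraries, so the values of the lines against WT are given side by side and were not correlated.

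**Figure D3:**
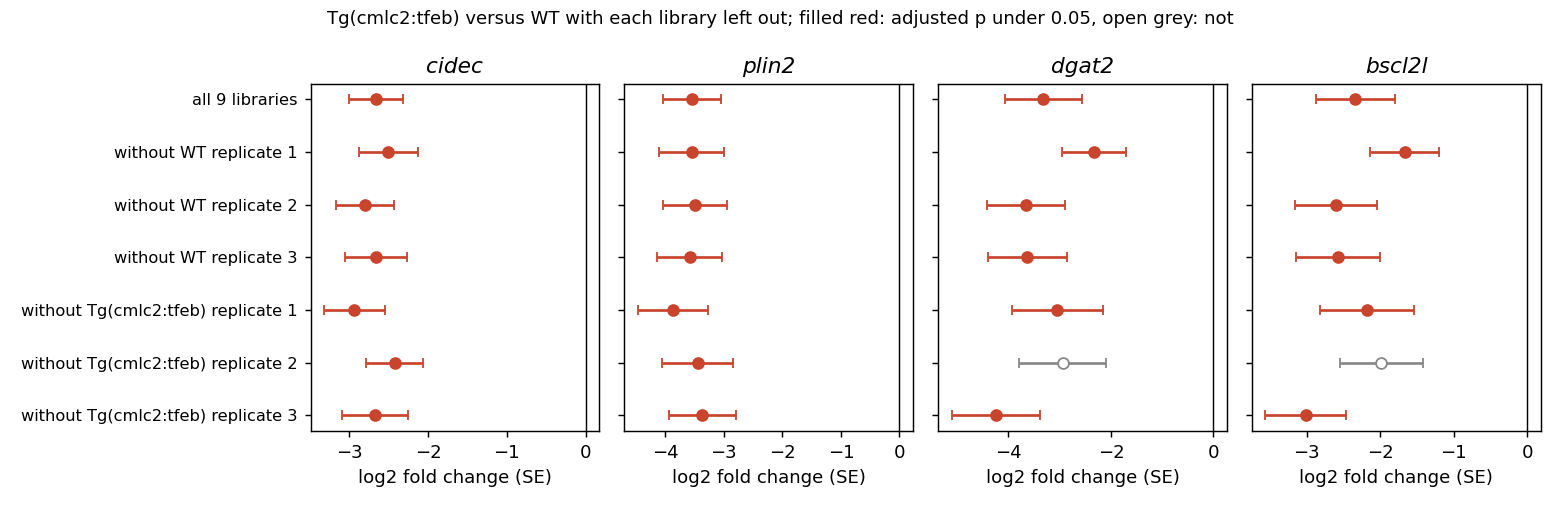
Log2 fold change (x axis, bars are SE) of the 4 called members in *Tg(cmlc2:tfeb)* versus WT with all 9 libraries and with each WT or *Tg(cmlc2:tfeb)* library left out (rows); filled red points have an adjusted p under 0.05. *cidec* stays between -2.93 and -2.42 and *plin2* between -3.87 and -3.36, whereas *dgat2* runs from -4.25 to -2.33 and *bscl2l* from -3.01 to -1.67, and both lose the call without *Tg(cmlc2:tfeb)* replicate 2.

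The members did not vary alike among replicates. WT replicate 1 was at least 1.5-fold above both other WT libraries for 3 of the 8 tested members (*bscl2l*, *dgat1a* and *dgat2*), against 3.76% of all genes. It was 2.76 times the mean of the other WT libraries for *bscl2l*, 3.94 times for *dgat2* and 1.83 times for *dgat1a*, but 0.989 times for *plin2*. *Tg(cmlc2:tfeb)* replicate 3, the library with the least *tfeb*, was likewise above both others of its line for *bscl2l*, *dgat2* and *plin6*, against 3.19% of all genes. Its ratio to the mean of the other libraries of the line was 2.90 for *bscl2l* and 4.02 for *dgat2*, but 1.03 for *cidec* and 0.613 for *plin2*. These libraries were singled out after their values were seen, and the part of the transgene level in the result was not tested.

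Over 4 lists of other lipid storage genes, 13 of 96 tested genes (13.5%) were called in *Tg(cmlc2:tfeb)* against WT, near the 14.9% of all genes. Of 21 other tested genes of droplet coat and biogenesis, 1 fell and 0 rose. The 1 gene was *lpcat1*, a lysophosphatidylcholine acyltransferase, with a log2 fold change of -1.36 (SE 0.23, adjusted p = 0.00341, edgeR). Of 24 other genes of triglyceride synthesis, 3 fell and 3 rose. *gpd1b*, which makes the glycerol 3-phosphate backbone, fell by 1.37 on the log2 scale (SE 0.19, adjusted p = 0.00117, edgeR). *scd*, a stearoyl-CoA desaturase gene, was at 380.0, 58.6 and 57.8 normalized counts in WT, at 141, 26.9 and 64.8 in *mtor xu015/+* and at 13.7, 4.35 and 4.48 in *Tg(cmlc2:tfeb)*. As for *dgat2*, WT replicate 1 was the highest library of *scd* and the transgenic range lay below the others. The log2 fold change of *scd* was -4.41 with all libraries (SE 1.0, adjusted p = 0.0134, edgeR), -2.90 without WT replicate 1 and -5.19 without *Tg(cmlc2:tfeb)* replicate 1. Its call was lost in limma-voom (adjusted p = 0.0964) and without *Tg(cmlc2:tfeb)* replicate 2 (adjusted p = 0.0570, edgeR).

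Its paralog *scdb* moved the other way, with a log2 fold change of 0.90 (SE 0.18, adjusted p = 0.00827, edgeR). *gpam*, which adds the first acyl chain to the backbone, rose by 0.60 (SE 0.15, adjusted p = 0.0177, edgeR), a change at the 1.5-fold threshold that was not called without WT replicate 1 or 3, without *Tg(cmlc2:tfeb)* replicate 2, in limma-voom or limma-trend, or with the replicate block. *mogat3a*, a monoacylglycerol acyltransferase gene, fell by 0.99 on the log2 scale (SE 0.28, adjusted p = 0.0320, edgeR), but its call was lost without WT replicate 1 or 3, without *Tg(cmlc2:tfeb)* replicate 1 or 2 (adjusted p from 0.0543 to 0.105), and with only the 6 libraries compared (0.0631). Of 24 tested genes of lipolysis and lipophagy, 2 fell and 0 rose, *g0s2* and *lpl*. *lpl*, the lipoprotein lipase that frees fatty acids in the vessel, was at 7585 to 8026 normalized counts in WT, 6002 to 11407 in *mtor xu015/+* and 2825 to 4820 in *Tg(cmlc2:tfeb)*. This was a log2 fold change of -1.17 (SE 0.26, adjusted p = 0.0121, edgeR), and -1.04 without *Tg(cmlc2:tfeb)* replicate 2 (adjusted p = 0.0509, edgeR).

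Among 27 tested transcriptional regulators of lipid storage, 2 fell and 2 rose, and the transgene *tfeb* is 1 of those that rose. *pparg*, the master regulator of fat cell genes, was at 222, 127 and 141 normalized counts in WT, at 106, 81.8 and 109.9 in *mtor xu015/+* and at 63.3, 50.5 and 29.1 in *Tg(cmlc2:tfeb)*. The 3 genotypes did not overlap for *pparg*, in the same order as for *cidec*, and the share of all genes in that order was not counted. *pparg* fell by 1.76 on the log2 scale in *Tg(cmlc2:tfeb)* (SE 0.30, adjusted p = 0.00381, edgeR), and its value was -1.48 without WT replicate 1. The difference of *pparg* between *mtor xu015/+* and WT was -0.72 (SE 0.29, adjusted p = 0.595, edgeR). *cebpa*, its partner in fat cells, had a log2 fold change of -0.79 (SE 0.18, adjusted p = 0.0149, edgeR), which was -0.53 and under the 1.5-fold threshold without WT replicate 1, and its adjusted p was 0.0582 without *Tg(cmlc2:tfeb)* replicate 2. *pparaa*, a regulator of fatty acid oxidation, rose by 0.96 (SE 0.12, adjusted p = 8.54e-04, edgeR), from 255 to 288 normalized counts in WT to 479.7 to 594 in *Tg(cmlc2:tfeb)*. In *mtor xu015/+* against WT, edgeR called 0 of the 96 tested genes of these 4 lists, as did DESeq2 and limma-voom, and 10 of them (10.4%) had an unadjusted p under 0.05 in edgeR, near the 7.86% of all genes. Between the lines, *gpd1b* (-1.25), *lpcat1* (-1.15) and *lpl* (-1.22) were lower in *Tg(cmlc2:tfeb)* by the log2 fold change of edgeR (adjusted p of 0.00159, 0.00641 and 0.00897). *g0s2* (-1.81), *scd* (-3.30) and *pparg* (-1.04) were also called lower (edgeR adjusted p of 0.0177, 0.0412 and 0.0343), but each lost the call in 3 to 5 of the 6 fits that left out a library. *pparaa* (0.86) and *gpam* (0.72) were higher (edgeR adjusted p of 0.00134 and 0.00718), *gpam* not without *Tg(cmlc2:tfeb)* replicate 2, where it was 0.57 and under the 1.5-fold threshold.

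**Figure D4:**
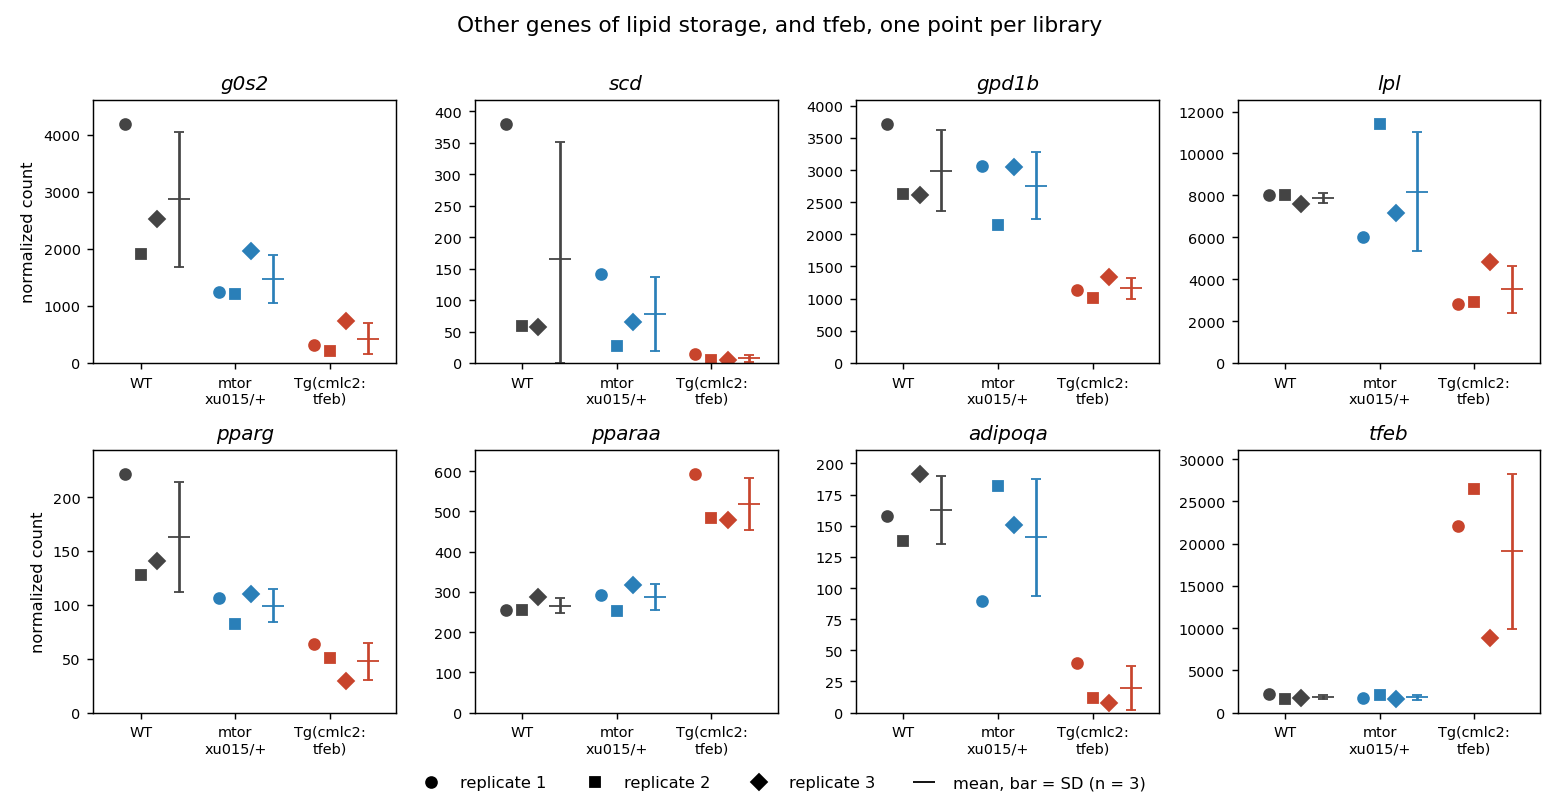
Normalized counts (y axis, linear from 0) of *g0s2*, *scd*, *gpd1b*, *lpl*, *pparg*, *pparaa*, *adipoqa* and *tfeb* in each library of the 3 genotypes (x axis); symbols mark replicate numbers, and bars are the mean with its SD (n = 3), ended at 0. In *Tg(cmlc2:tfeb)* the first 5 genes and *adipoqa* lie below every WT library, *pparaa* and *tfeb* lie above, and WT replicate 1 is the highest WT library of *g0s2*, *scd*, *gpd1b* and *pparg*.

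Several members and regulators are also genes of fat cells, which sit on the heart surface and can be dissected with it. In a bulk sample, fewer cells of a type and less RNA per cell cannot be told apart. Of 12 tested adipocyte markers that are not members, 5 fell in *Tg(cmlc2:tfeb)* and 0 rose (*pparg*, *cebpa*, *gpd1b*, *adipoqa* and *fabp11a*), against 7.49% of all genes called lower. The median log2 fold change of the list was -0.36, against -0.00063 for all genes. The summed level of the 17 markers in the table was 38970 to 48696 normalized counts in WT, 36882 to 40635 in *mtor xu015/+* and 31126 to 32411 in *Tg(cmlc2:tfeb)*, and WT replicate 1 was the highest library. *adipoqa*, an adiponectin gene, was at 158, 138 and 192 normalized counts in WT, at 89.5, 182 and 150.2 in *mtor xu015/+* and at 40.2, 11.3 and 7.85 in *Tg(cmlc2:tfeb)*. It fell by 2.99 on the log2 scale in *Tg(cmlc2:tfeb)* (SE 0.50, adjusted p = 0.00325, edgeR). The value was -4.04 without *Tg(cmlc2:tfeb)* replicate 1 and -2.65 without *Tg(cmlc2:tfeb)* replicate 3. Part of the summed level came from *fabp11a*, a fatty acid binding protein gene. It held 16835 of 48696 in WT replicate 1 and 7380 of 31126 in *Tg(cmlc2:tfeb)* replicate 1. Much of the rest came from markers whose levels are not given here. *adipoqa* and *pparg*, at no more than 192 and 222 normalized counts in any library, added little. The sum is therefore not a measure of the amount of fat cells. *fabp11a* was at 11086.5 to 16835 normalized counts in WT, 9918 to 13051.5 in *mtor xu015/+* and 7380 to 8825 in *Tg(cmlc2:tfeb)*. This gene had a log2 fold change of -0.67 in *Tg(cmlc2:tfeb)* versus WT (SE 0.17, adjusted p = 0.0224, edgeR). Its call was lost without WT replicate 1 (-0.45, adjusted p = 0.0542) or *Tg(cmlc2:tfeb)* replicate 1 (-0.60, adjusted p = 0.0709).

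The hormone-sensitive lipase genes *lipea* and *lipeb* were not called in *Tg(cmlc2:tfeb)* (log2 fold changes of 0.09, SE 0.18, and 0.10, SE 0.13). The defining markers *plin1* and *adipoqb* were at or near 0 in all 9 libraries, WT included, with at most 3.48 and 2.21 normalized counts, so they could not show a fall. Markers of other cell types moved too. The summed level of 17 cardiomyocyte markers was 5730941 to 6014319 normalized counts in WT, 5605566 to 6075045 in *mtor xu015/+* and 4236221 to 4570523 in *Tg(cmlc2:tfeb)*, with 3 of the 17 called lower and 1 higher, while *myl7* was not called (-0.25, SE 0.12, adjusted p = 0.155, edgeR). For 11 erythrocyte markers the sum was 122296 to 140140 in WT, 75798 to 99117 in *mtor xu015/+* and 167273 to 219611 in *Tg(cmlc2:tfeb)*, with 0 called lower and 3 higher. Endothelial markers summed to 51413 to 57351 in WT, 55687 to 64684 in *mtor xu015/+* and 63045 to 66757 in *Tg(cmlc2:tfeb)* (17 tested, 1 lower and 2 higher). The sum of epicardial and fibroblast markers was 23408 to 26154 in WT, 21940 to 24656 in *mtor xu015/+* and 29592 to 38286 in *Tg(cmlc2:tfeb)* (13 tested, 2 higher, median log2 fold change 0.44). Schwann cell markers summed to 4353 to 5153 in WT, 3824 to 4146 in *mtor xu015/+* and 4082 to 4149 in *Tg(cmlc2:tfeb)* (7 tested, 1 lower). Macrophage sums overlapped, with 8523 to 12043 in WT, 9038 to 11833 in *mtor xu015/+* and 8436 to 10610 in *Tg(cmlc2:tfeb)* (18 tested, 2 lower). The transgenic line was thus above WT without overlap for the erythrocyte, endothelial and epicardial sums. It was below WT without overlap for the adipocyte, cardiomyocyte and Schwann cell sums. Each sum is weighted towards the markers with the highest counts. Between the lines, where 3 members differed, *Tg(cmlc2:tfeb)* was higher in 9 of 11 erythrocyte and 5 of 13 epicardial and fibroblast markers. It was lower in 3 of 12 adipocyte, 3 of 18 macrophage, 2 of 17 cardiomyocyte and 1 of 17 endothelial markers. In the macrophage and cardiomyocyte lists 1 marker each was higher, and 0 of 7 Schwann cell markers were called. Over all genes, 7.95% were called lower and 1717 of 21216 were called higher. The part of any cell type in the change of the members was not tested.

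The genes most like *cidec* and *bscl2l* over the 9 libraries were named by the Pearson correlation of log2 CPM across 18883 named genes, as a description over libraries that share their genotypes. For *cidec* they were *atp2b2* (r = 0.975), *mag* (0.967), *slc7a7* (0.965), *hoxb6a* (0.963) and *pltp* (0.963). For *bscl2l* they were *mical2b* (r = 0.995), *g0s2* (0.970), *si:ch73-106k19.5* (0.969), *zgc:162297* (0.963) and *cebpa* (0.962). The list for *bscl2l* thus held 2 genes described above, *g0s2* and *cebpa*, and the list for *cidec* held none. WT replicate 1 was the highest of the 9 libraries for *bscl2l*, *g0s2* and *cebpa* (587, 4185 and 723 normalized counts). The correlations without that library, and the usual r between other genes, were not computed.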

How the data were processed

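RNA from pooled ventricles of 3 zebrafish genotypes was sequenced as pairs of 50-bp reads. The authors deposited 1 table of estimated counts per gene and library. The study's methods name TopHat and Cufflinks, whereas the submitters' processing notes list bcl2fastq (version 2.17), Trimmomatic (version 0.36), STAR (version 2.5.2b) and GRCz11, the build of the coordinates. The tool that made the table is not given in the sources used here, nor is the treatment of reads shared by near-identical genes, so counts of paralogs are uncertain. The smallest non-zero value was between 0.8 and 1.2 in 66.8% of 2751 low genes. The values were therefore treated as estimated counts that are not per length, although the label names TPM, a measure per length. A percent of a gene pair or a sum over markers is therefore compared between libraries only and does not rank genes by level.

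Estimated counts were rounded, filtered with filterByExpr, normalized with TMM and fitted over all 9 libraries by quasi-likelihood in edgeR (version 4.0.16; R version 4.3.3), with p-values adjusted over 21216 genes by the Benjamini-Hochberg method. DEGs needed an adjusted p under 0.05 and at least 1.5-fold. Normalized counts are counts scaled to the mean effective library size. Cuffdiff, the test of the study, needs alignments and was not run. Alternatives used DESeq2 (version 1.42.0), limma (version 3.58.1), other normalizations, filters, fold thresholds and subsets of libraries. No replicate libraries were identical. Every library held a total of at least 35440229, so counting error matters mostly for low counts. These include the counts of *cidec*, *plin2*, *dgat2* and *scd* in *Tg(cmlc2:tfeb)*.

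The members and the lists were chosen with earlier results of these data known. Besides the members, the text names up to 5 called genes per pathway list by smallest p, the markers that define adipocytes and *myl7*, the 5 genes most like *cidec* and *bscl2l*, the manipulated genes, and paralogs or partners of members. Promoter sequences were not analysed here.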

Additional observations from a re-analysis of the deposited data

Results flagged for a closer look

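The effects of the lines differed from each other for 3 members by the direct test between *Tg(cmlc2:tfeb)* and *mtor xu015/+* in edgeR. The log2 difference was -1.57 for *cidec*, -3.02 for *plin2* and -2.56 for *dgat2*. Each value is the level in *Tg(cmlc2:tfeb)* minus that in *mtor xu015/+* on the log2 scale. The WT level does not enter it, though the WT libraries share in the estimate of the spread.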

How the results depend on the processing

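Of the 4 members called in *Tg(cmlc2:tfeb)* versus WT, *cidec* and *plin2* were called in all 11 alternatives and with each library left out, while the number called was 4 in all 11 alternatives and 2 to 4 with a library left out (2 without *Tg(cmlc2:tfeb)* replicate 2). In *mtor xu015/+* versus WT, 0 members were called in every fit. Across all genes that comparison had 5 calls in edgeR, 68 in DESeq2, 9 with limma-trend or with no filter, and 0 in limma-voom, with a minimum of 1 CPM in 3 libraries, with the replicate block or with only the 6 libraries compared. In *Tg(cmlc2:tfeb)* versus *mtor xu015/+*, 3 members were called, 2 in limma-voom and 2 to 4 with a library left out. With a 2-fold threshold, calls across all genes were 1973 rather than 3161 in *Tg(cmlc2:tfeb)* versus WT and 2078 rather than 3404 between the lines, and without a fold threshold they were 5157 between the lines.

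Replicate numbers showed no clear pairing of the libraries, with correlations of same-numbered deviations from -0.0239 to 0.0889. In the 3 comparisons, 2, 3 and 4 of 6 libraries correlated best with their own number. With 3 libraries per group, these values are too few to settle whether the libraries were paired. With a replicate block the counts of called members were 4, 0 and 3, as without it, calls across all genes went from 3161 to 2954, from 5 to 0 and from 3404 to 3208, and *pnpla2* in *mtor xu015/+* versus WT turned from -0.00868 to 0.0144. The block also took *gpam* in *Tg(cmlc2:tfeb)* versus WT from 0.60 to 0.5848, just under the 1.5-fold threshold. The sign of the *pnpla2* value in *mtor xu015/+* versus WT also turned in limma-voom (0.0187) and limma-trend (0.0214).

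With 1 library left out, signs turned for members that were not called. The log2 fold change against WT in *Tg(cmlc2:tfeb)* ran from -0.37 to 0.14 for *plin6*, -0.22 to 0.14 for *pnpla2* and -0.47 to 0.11 for *dgat1a*. In *mtor xu015/+* it ran from -0.0253 to 0.14 for *bscl2*, -0.18 to 0.18 for *pnpla2*, -0.51 to 0.0646 for *dgat1a* and -1.30 to 0.23 for *dgat2*. Between the lines it ran from -0.0348 to 0.13 for *bscl2*, -0.12 to 0.0469 for *pnpla2* and -0.10 to 0.17 for *dgat1a*. The cause of these changes was not tested. Depth limits *plin1* and *plin6*. It also limits how well the size of the falls of *cidec*, *plin2* and *dgat2* is known. Their lowest *Tg(cmlc2:tfeb)* libraries held 12.2, 8.97 and 7.84 normalized counts.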
